A study of Mus musculus with 12 samples.

Results

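Muscle contractile genes were followed array by array in mouse lung. The set held 35 genes: 11 typical of smooth muscle, 12 of cardiac muscle and 12 of fast skeletal muscle. All 35 had a probe set annotated to that gene alone, among 18193 genes with such a probe set, and each was read from its probe set with the highest mean over the 12 arrays. The genes were chosen because single arrays of these data were seen to carry them at unusual levels, so their levels are given as a description, and no member's pattern counts as a finding supported by a test.

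The RNA came from lungs of mice of 8 to 12 weeks, hybridised to 12 Affymetrix arrays, 3 for each of 4 groups. Phosphate-buffered saline was given to control mice. The ventilation group was ventilated for 4 hours with a tidal volume of 30 ml/kg; the titles abbreviate this as VALI and the protocols as VILI. The rhPBEF group was given 20 µg per mouse of recombinant human PBEF, the secreted protein encoded by Nampt, in 1.5 µl of water per g body weight through the trachea. The last group had rhPBEF plus ventilation. The labels give neither strain nor sex, nor the interval from instillation to lung collection, nor whether ventilated mice had saline, and no group was ventilated at a lower volume. They do not say whether the arrays of a group came from separate mice, so p-values measure only the spread between these arrays.

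Muscle cells shorten when myosin heavy chains pull on actin filaments. In cardiac and skeletal muscle calcium acts through the troponin complex on the thin filament, whereas in smooth muscle it acts through phosphorylation of the myosin light chain. Mouse lung holds smooth muscle in airway and vessel walls, and the pulmonary veins carry a sleeve of atrial-type cardiac muscle that continues from the heart; skeletal muscle is not part of the lung, and lies next to it in the chest wall, diaphragm and oesophagus of the mouse.

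The labelled tissue was clear in all 12 arrays. Sftpc, the surfactant protein C gene of alveolar type 2 cells, stood between 14.76 and 14.97 on the log2 scale, and the mean of 9 lung epithelium markers stayed between -0.07 and 0.04 log2 units of its control mean. In ventilation replicate 2 that mean held opposite moves: 7 of the 9 markers were at their lowest, Foxj1, a transcription factor gene of ciliated cells, lay 1.2 above its control mean, and the summed level was 89.8% of control. Array medians ran from 7 to 7.07. Ventilation replicate 2 stood apart from the other arrays over all genes: 111 genes were more than 1 log2 unit above, and 26 below, their level in every other array. In whole lung RNA, fewer cells of a type and less RNA per cell cannot be told apart. Detection calls are not in the table, so low levels and background cannot be separated.

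The classes differed in where they varied. Over all 18193 genes the median within-group SD was 0.134 log2 units, against 0.351 for smooth muscle members, 0.585 for cardiac members and 1.08 for skeletal members. The class mean, taken as the mean over members of the log2 level minus that gene's control mean, lay farthest from the rest of its group in rhPBEF replicate 2 for skeletal genes and in ventilation replicate 1 for both other classes. Since these spreads are what drew attention to the genes, they carry no test.

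**Figure D1:**
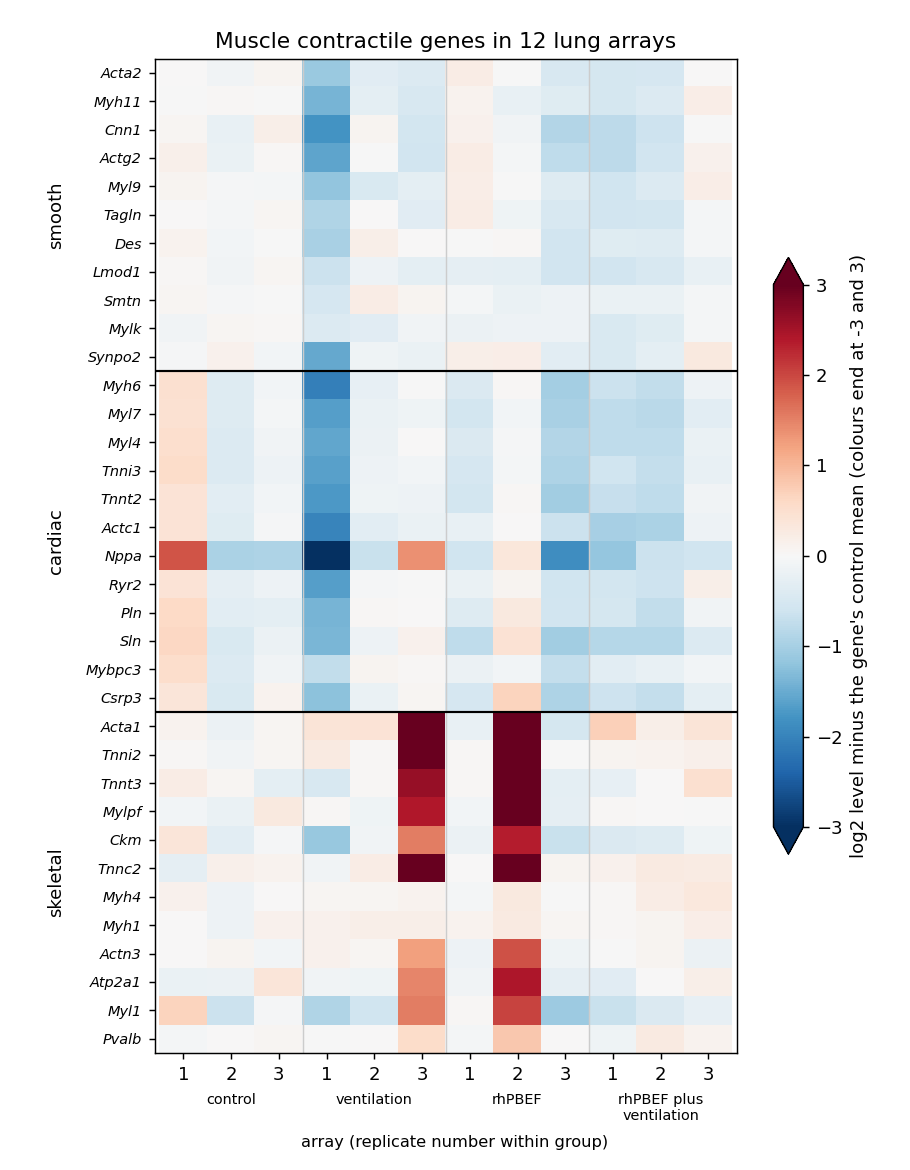
Each cell is the log2 level of a member (vertical axis, grouped by muscle class) in 1 of 12 arrays (horizontal axis) minus the mean of that gene's 3 control arrays, in log2 units. Ventilation replicate 3 and rhPBEF replicate 2 are red over most skeletal genes, to unequal depth, and ventilation replicate 1 is blue over smooth and cardiac genes.

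Fast skeletal muscle genes were high in rhPBEF replicate 2 and ventilation replicate 3 and low in the other 10 arrays. Acta1, the skeletal alpha-actin gene, read 7.04, 6.75 and 6.99 in control, 7.32, 7.34 and 11.48 in ventilation, 6.70, 12.28 and 6.41 in rhPBEF, and 7.64, 7.1 and 7.31 in rhPBEF plus ventilation. At these levels rhPBEF replicate 2 was 24.8-fold above the highest of the remaining 10 arrays, and ventilation replicate 3 was 14.3-fold above it. Tnnc2, the calcium-binding troponin C of fast fibres, read 5.19, 5.61 and 5.57 in control, 5.34, 5.68 and 10.23 in ventilation, 5.46, 11.38 and 5.53 in rhPBEF, and 5.58, 5.72 and 5.70 in rhPBEF plus ventilation. Its 2 high arrays stood 50.3-fold and 22.8-fold above the highest of the others, all of which lay below the filter level of 6.42, where a level may be background, so these folds describe the table's values only.

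The remaining troponin and myosin light chain genes of fast fibres followed the same 2 arrays. Tnni2, the inhibitory troponin subunit, stood at 10.60 in rhPBEF replicate 2 and 9.37 in ventilation replicate 3, against 6.30 to 6.68 elsewhere. Tnnt3, which anchors troponin to tropomyosin, stood at 10.09 and 8.75 against 5.67 to 6.63. The regulatory light chain gene Mylpf stood at 9.99 and 8.75 against 6.08 to 6.63. Myl1, an essential light chain of fast fibres, showed a smaller separation, with 10.26 and 9.77 against 7.15 to 8.91, the latter in control replicate 1.

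Genes of fibre structure, calcium return and energy supply were also highest there. Atp2a1, the calcium pump SERCA1 of fast fibres, stood at 9.59 and 8.63 against 6.81 to 7.52. The muscle creatine kinase gene Ckm stood at 10.82 and 10 against 7.32 to 8.82, and it was lowest in ventilation replicate 1; heart muscle expresses this gene too. Actn3, the Z-disc actinin of fast fibres, stood at 7.77 and 7.09 against 5.68 to 6.00. Pvalb, a calcium buffer of fast fibres, separated by least, with 6.49 and 6.21 against 5.55 to 5.93.

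In all, 10 of 12 skeletal members were higher in these 2 arrays than in every other array, and 8 of them by more than 1 log2 unit. Across these 8, rhPBEF replicate 2 exceeded ventilation replicate 3 by 0.68 to 1.34 log2 units. With each gene read from its probe set of highest mean, 11 of 18193 genes stood more than 1 log2 unit above all other arrays in both. Other probe sets of Myh1 and Myh4, given below, were not counted. Of the 11, 8 were members, which were chosen for such levels, so that share supports nothing. The other 3 were Myh8, the perinatal myosin heavy chain gene, Neb, which encodes the thin-filament protein nebulin, and Myot, which encodes the Z-disc protein myotilin. Myh8 stood at 10.13 and 8.88 against at most 4.54 elsewhere, while the embryonic myosin gene Myh3 stayed between 4.52 and 5.18 in all arrays. Of 36 further skeletal muscle genes with a probe set, 21 were higher in both arrays than in every other one. Among them were Klhl41, which encodes a sarcomere assembly factor, and Casq1, the calcium store protein calsequestrin of fast fibres. The share of all genes meeting this condition, without a minimum gap, is not given here. Members and list were chosen with earlier results of these data known, so the counts of 10 and 21 are a description only.

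**Figure D2:**
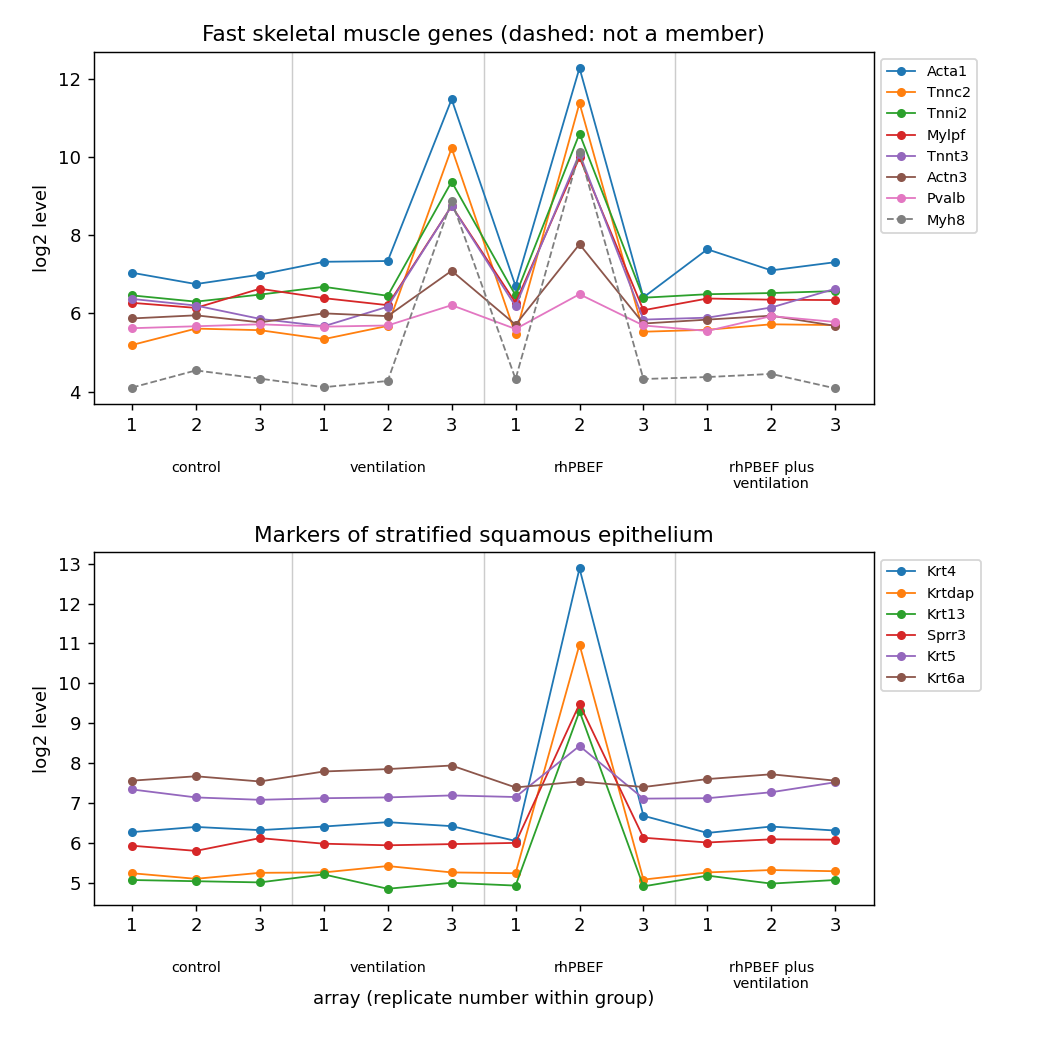
Log2 level (vertical axis) of skeletal muscle genes (upper panel) and squamous epithelium markers (lower panel) in the 12 arrays (horizontal axis, by group); lines only join the points of a gene. The muscle genes peak in ventilation replicate 3 and rhPBEF replicate 2, whereas Krt4, Krtdap, Krt13 and Sprr3 stand far above the other arrays in rhPBEF replicate 2 alone. Krt5 lies 1.24 log2 units above its control mean there, and Krt6a stays between 7.39 and 7.94.

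The 2 arrays differed in what accompanied the muscle genes. In rhPBEF replicate 2 the 10 genes with the widest gap to the next array held no member: they were Krt4, Krtdap, Mt4, Lce3a, Defb4, Krt13, Crct1, Lor, Lce1c and Lce3f, most of which are genes of stratified squamous epithelium. Krt4, a keratin of the layers above the base of such epithelium, stood at 12.88 there against 6.05 to 6.68 in the other 11 arrays. Its partner keratin gene Krt13 stood at 9.30 against 4.85 to 5.21. The mean of 8 squamous markers was 3.09 log2 units above control in rhPBEF replicate 2 and between -0.05 and 0.34 in all others. Of the 8, 4 were highest in rhPBEF replicate 2 by more than 1 log2 unit. Sprr1a was not high there alone: it stood 2.44 above its control mean in that array and 2.39 in ventilation replicate 2. Their summed linear level ranged from 97.1% to 102% of the control mean in control, 115% to 166% in ventilation, 95.2% to 1769% in rhPBEF and 107% to 112% in rhPBEF plus ventilation.

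In ventilation replicate 3 the squamous markers stood at 0.24, with Krt4 at 6.42 and Krt13 at 5, both within the range of the other arrays. What the squamous markers contributed to the muscle levels was not tested.

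The myosin heavy chain genes depended on the probe set. Read from the probe set with the highest mean, Myh1, the heavy chain of fast IIx fibres, lay between 5.56 and 5.99 in all arrays, and Myh4, that of IIb fibres, between 4.19 and 4.65. A second probe set of Myh1 lay between 3.63 and 4.04 in 10 arrays but at 9.61 in ventilation replicate 3 and 10.53 in rhPBEF replicate 2. Another, of the kind whose probes can match other transcripts, read 9.45 and 10.35 there against 3.68 to 4.08. The other probe set of Myh4 stood at 5.24 and 6.5 against 3.78 to 4.00. Choosing by mean level therefore picked, for both genes, the probe set that separated no array. Skeletal myosin heavy chain genes are close in sequence, so a signal assigned to Myh1, Myh4 or Myh8 may come from another of them.

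**Figure D3:**
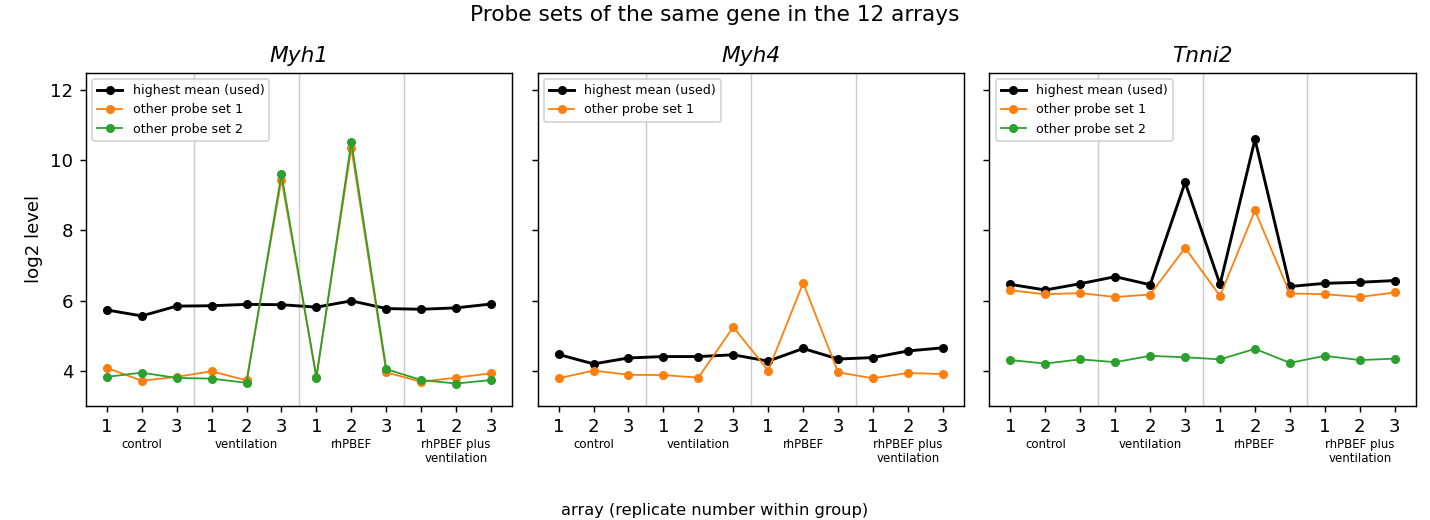
Log2 level (vertical axis) of each probe set of Myh1, Myh4 and Tnni2 in the 12 arrays (horizontal axis, by group), with the probe set of highest mean in black; lines only join the points of a probe set. For Myh1 and Myh4 the black series is flat while others peak in ventilation replicate 3 and rhPBEF replicate 2; for Tnni2 the black series peaks most.

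Genes of slow fibres and of the ventricle did not share these peaks in full. Tnni1 and Tnnt1, the troponin I and T of slow fibres, stayed between 6.13 and 6.55 and between 6.37 and 6.94. Myl3, a light chain of ventricle and slow fibres, was higher in both arrays, at 9.63 and 8.92 against 7.79 to 8.22. Of the 5 ventricular or slow fibre genes past the filter on low values, 0 passed the test in any comparison; the share of all genes that passed was at most 8.79%, so a count of 0 says little.

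Cardiac members were lowest in ventilation replicate 1 without exception, and 11 of 12 were highest in control replicate 1. Myh6, the atrial-type myosin heavy chain that the adult mouse ventricle also uses, read 12.34, 11.47 and 11.78 in control, 9.82, 11.62 and 11.84 in ventilation, 11.42, 11.90 and 10.84 in rhPBEF, and 11.21, 11.12 and 11.70 in rhPBEF plus ventilation. Every group overlapped with control, whose own first array stood above all others. Actc1, cardiac alpha-actin, read 13.01, 12.23 and 12.55 in control, 10.62, 12.28 and 12.40 in ventilation, 12.37, 12.60 and 11.95 in rhPBEF, and 11.61, 11.65 and 12.45 in rhPBEF plus ventilation. Relative to the control mean, the median cardiac member stood at 32.2% in ventilation replicate 1, at 52.5% in rhPBEF replicate 3, and at 62.7% and 59.97% in rhPBEF plus ventilation replicates 1 and 2. In control replicate 1 it stood at 141%.

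The atrial light chain genes Myl7 and Myl4 moved over the arrays with ranges of 2.10 and 2.07 log2 units, close to the 2.18 of Tnni3 and the 2.13 of Tnnt2, the cardiac troponin I and T. Calcium handling genes had like ranges: Ryr2, the release channel of the sarcoplasmic reticulum, spanned 2.08, Pln, which restrains the calcium pump, 1.98, and Sln, which does so in the atrium, 2. Mybpc3, which encodes the thick-filament protein cMyBP-C, spanned 1.25, the smallest range of the class. Csrp3, a Z-disc protein of heart and skeletal muscle, was the exception at the top, with its highest level of 10.23 in rhPBEF replicate 2 and 9.92 in control replicate 1.

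Nppa, which encodes the atrial natriuretic peptide released by stretched atrial muscle, departed from its class. It read 12.73, 9.88 and 9.91 in control, 7.54, 10.17 and 12.20 in ventilation, 10.25, 11.19 and 8.97 in rhPBEF, and 9.68, 10.20 and 10.24 in rhPBEF plus ventilation. Its range was 36.4-fold, against 2.38-fold to 5.71-fold for the other 11 cardiac members. In ventilation replicate 3 it stood at 12.20 although Myh6, at 11.84, was at its control mean of 11.86. Nppb, the related B-type peptide and no member, was high in the same pair of arrays, at 8.64 in control replicate 1 and 7.92 in ventilation replicate 3, against 5.95 to 6.70 elsewhere. The 3 control arrays alone gave Nppa an SD of 1.63, larger than its difference from control in any group.

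Markers that separate atrium from ventricle were read as well. The ventricular light chain gene Myl2 stayed between 4.73 and 5.54 in all 12 arrays. This is below the filter level, where a level may be background, so its order over the arrays was not read. Of 13 genes listed for atrium and pulmonary vein, 9 passed the filter. Of the 13, 8 were highest in control replicate 1, but only 4 were lowest in ventilation replicate 1, against 5 in rhPBEF replicate 1. The mean of the 13 stood at 0.33 and -0.43 log2 units from control in control replicate 1 and ventilation replicate 1. Tnnc1, troponin C of heart and slow fibres, ran with the members, from 8.64 in ventilation replicate 1 to 10.66 in control replicate 1. Genes shared by heart and skeletal muscle showed both patterns at once: Ttn, which encodes titin, was lowest at 7.88 in ventilation replicate 1, stood at 10.43 in control replicate 1 and 10.45 in ventilation replicate 3, and was highest at 10.96 in rhPBEF replicate 2.

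**Figure D4:**
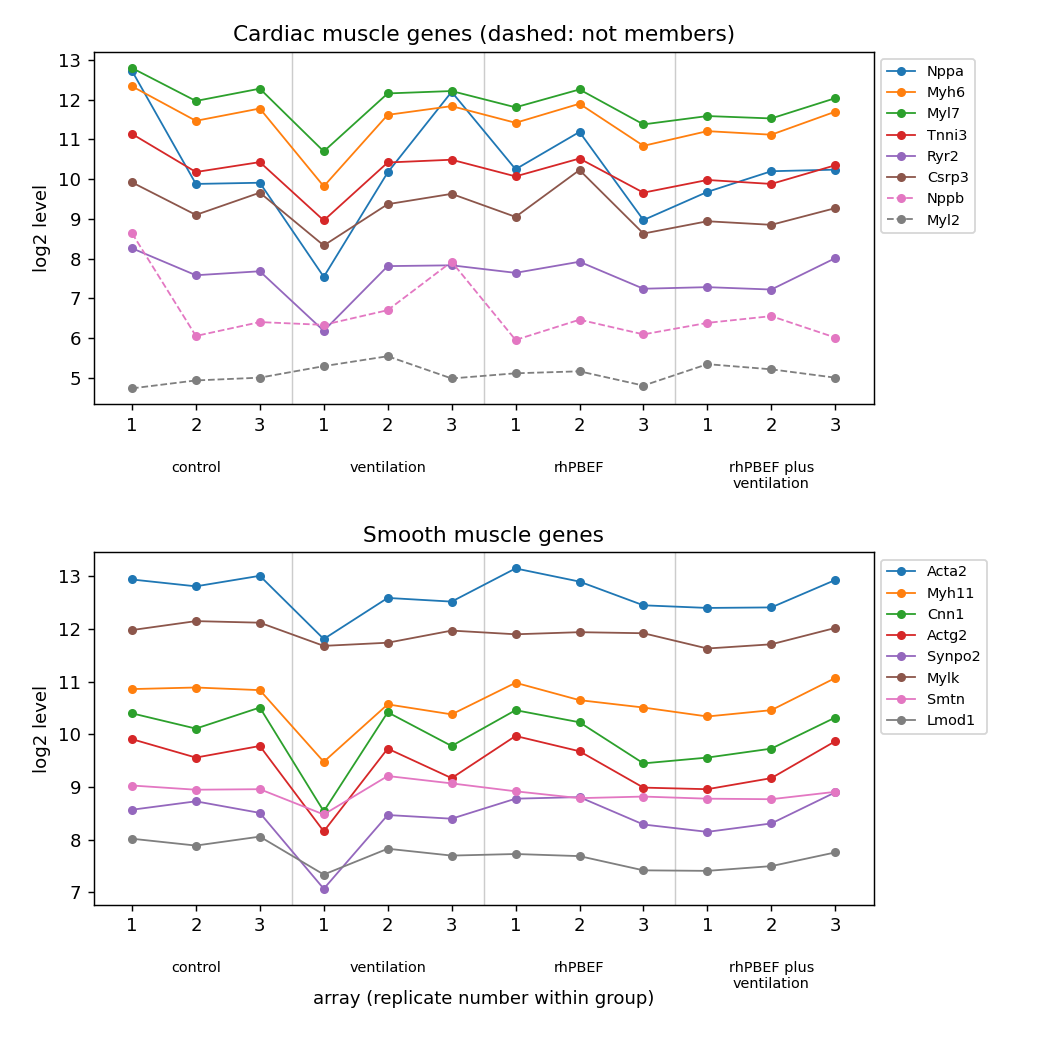
Log2 level (vertical axis) of cardiac muscle genes (upper panel; Nppb and Myl2 are not members) and smooth muscle genes (lower panel) in the 12 arrays (horizontal axis, by group); lines only join the points of a gene. All cardiac members drop in ventilation replicate 1, Nppa and Nppb peak in control replicate 1 and ventilation replicate 3, Myl2 stays between 4.73 and 5.54, and smooth muscle genes dip in ventilation replicate 1 by unequal amounts.

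Smooth muscle members were tight in control and lowest in ventilation replicate 1, for 10 of 11; Mylk was lowest in rhPBEF plus ventilation replicate 1. Cnn1, calponin, an actin-binding protein of differentiated smooth muscle, read 10.40, 10.11 and 10.51 in control, 8.54, 10.42 and 9.78 in ventilation, 10.46, 10.23 and 9.45 in rhPBEF, and 9.56, 9.73 and 10.32 in rhPBEF plus ventilation. Acta2, smooth muscle alpha-actin, read 12.94, 12.81 and 13.01 in control, 11.81, 12.59 and 12.52 in ventilation, 13.15, 12.90 and 12.45 in rhPBEF, and 12.40, 12.41 and 12.93 in rhPBEF plus ventilation. All 3 ventilation arrays of Acta2 lay below control, whereas both other groups overlapped with it. The median smooth muscle member stood at 46.4% of its control mean in ventilation replicate 1, and at 91.6% and 81.3% in replicates 2 and 3.

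Within ventilation replicate 1 the differences from control were unequal. Cnn1, Actg2 (the enteric actin, also found in vessels) and Synpo2 (an actin-bundling protein) stood at -1.80, -1.58 and -1.53 log2 units from their control means, followed by -1.38 for Myh11, the smooth muscle myosin heavy chain, and -1.19 for Myl9, its regulatory light chain. The thin-filament gene Lmod1 and the kinase gene Mylk, whose product phosphorylates the light chain, stood at -0.65 and -0.40, and Smtn, which encodes the actin-associated protein smoothelin, at -0.50. Tagln, which encodes SM22, and Des, the intermediate filament gene shared by all muscle types, stood at -0.90 and -0.97.

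A further 3 arrays were low over every smooth muscle member: all 11 lay below all 3 controls in rhPBEF replicate 3 and in rhPBEF plus ventilation replicates 1 and 2, at medians of 72.3%, 69.6% and 74.9% of control. In rhPBEF plus ventilation replicate 3 only 2 did, at a median of 98.7%. The same arrays were low for cardiac members, with all 12, 11 and 10 of 12 below every control and 0 in replicate 3 of the combined group. The classes parted in rhPBEF replicate 1. There 8 of 12 cardiac members lay below every control, at a median of 72.0% of control, whereas the smooth muscle median was 108.6%. Of all genes, 20.4% in rhPBEF and 19.7% in rhPBEF plus ventilation had all 3 arrays below every control. A single array meets that condition more easily. Its share of all genes is not given here, so these counts are a description only.

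Markers of white fat were highest in control replicate 1 for 8 of 8, but only 4 of 8 were lowest in ventilation replicate 1. In ventilation against control all 7 tested were lower at an unadjusted limma p under 0.05, beside 15.5% of all genes, and 0 passed the adjusted threshold. For rhPBEF plus ventilation against control, Cidec and Pck1 passed it, where 8.79% of all genes did. The mean of 8 white adipocyte markers was 0.67 above the control mean in control replicate 1 and -1.19 in ventilation replicate 1; it stood at -0.88 and -0.77 in the other ventilation arrays and between -0.65 and -0.28 in the remaining 8. Their summed linear level ranged from 68.5% to 160% of the control mean in control, 39.9% to 60.4% in ventilation, 78.0% to 83.3% in rhPBEF and 64.6% to 75.1% in rhPBEF plus ventilation. Adipoq, the adiponectin gene, read 11.08 in control replicate 1 and 8.04 in ventilation replicate 1, its highest and lowest levels. Brown adipocyte markers followed only control replicate 1, where 5 of 6 were highest. In ventilation replicate 1 only 1 of 6 was lowest. Their mean lay between -0.28 and -0.10 in ventilation and reached -0.31 in a control array. Smooth muscle genes outside the members lay at -0.40 and pericyte markers at -0.27 in ventilation replicate 1, though pericyte markers were lower still, at -0.40, in ventilation replicate 2. The share of these tissues in the muscle levels was not tested.

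**Figure D5:**
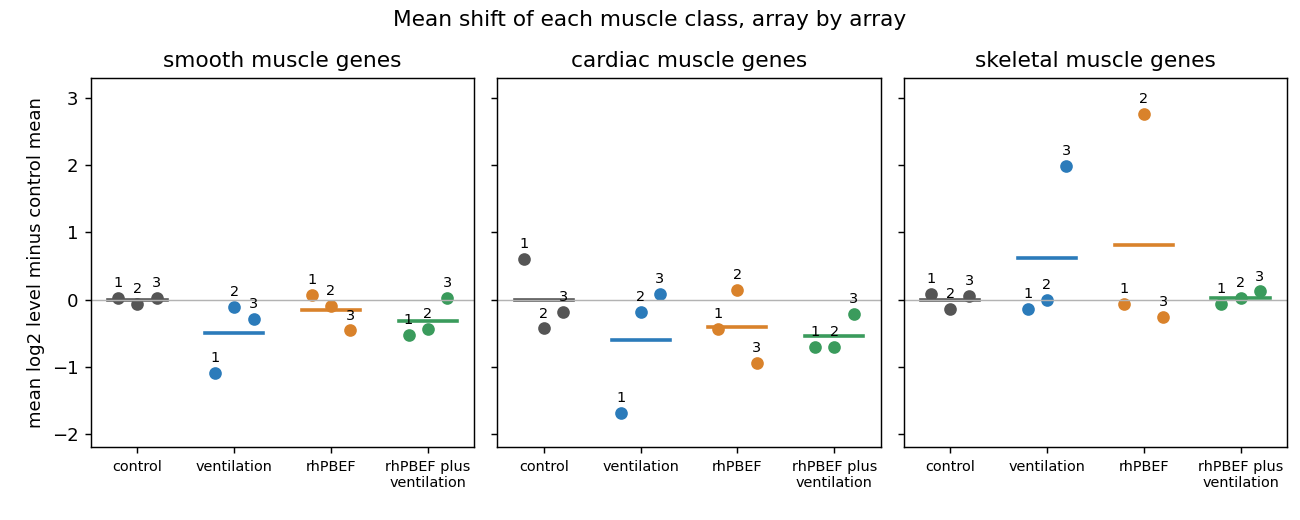
Mean over the members of each muscle class of the log2 level minus the gene's control mean (vertical axis, log2 units), by group (horizontal axis); points are arrays with their replicate number and bars are group means. The bars of the skeletal panel rest on 1 array in ventilation (1.99) and 1 in rhPBEF (2.76).

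Against control, the group means followed these arrays. Smooth muscle members had a mean shift of -0.50 ± 0.52 (SD, n = 3 arrays) in ventilation, -0.16 ± 0.27 (SD, n = 3) in rhPBEF and -0.31 ± 0.30 (SD, n = 3) in rhPBEF plus ventilation, with a control SD of 0.05. The shift in ventilation was -0.20 without replicate 1, in rhPBEF -0.01 without replicate 3, and in the combined group -0.48 without replicate 3. In the same order of groups, cardiac members shifted by -0.59 ± 0.96 (SD, n = 3), -0.41 ± 0.54 (SD, n = 3) and -0.54 ± 0.29 (SD, n = 3), with a control SD of 0.54. The cardiac shift in ventilation was -0.05 without ventilation replicate 1, -0.29 without control replicate 1, and 0.25 without both. Without control replicate 1 it was -0.11 in rhPBEF and -0.24 in rhPBEF plus ventilation. In ventilation, rhPBEF and the combined group, skeletal members shifted by 0.62 ± 1.19 (SD, n = 3), 0.82 ± 1.69 (SD, n = 3) and 0.03 ± 0.10 (SD, n = 3). Without ventilation replicate 3 and rhPBEF replicate 2 the first pair became -0.07 and -0.16.

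The comparisons with control share the 3 control arrays, so they are not independent. With 3 arrays a side, the smallest two-sided p of an exact permutation test is 0.1; limma's moderated test over 12921 genes was used instead. Of the 35 members, 30 passed the filter on low values: all 11 smooth, all 12 cardiac and 7 of 12 skeletal. Tnnc2, Myh4, Myh1, Actn3 and Pvalb did not, and have no test. A gene that passed only through a high array could not but vary, so these counts support nothing.

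Of the 30 members, 0 passed limma's adjusted p of 0.05 in any of the 6 comparisons. Over all genes tested, 1.22% passed for rhPBEF against control, 0.00774% for ventilation against control, 8.79% for rhPBEF plus ventilation against control, 0.325% for the combined treatment against ventilation, 0.00774% for it against rhPBEF, and 0% for the interaction. At an unadjusted p of 0.05, 1, 5 and 2 members passed for rhPBEF, ventilation and both against control, all of them smooth muscle genes, and 0 in the other 3 comparisons. That is 3.33%, 16.7% and 6.67% of the members, beside 18.3%, 15.5% and 27.5% of all genes at the same unadjusted p. The shares of the pooled members thus lay below or near the share of all genes. Within the 11 smooth muscle members they were 9.09%, 45.5% and 18.2%, so only that for ventilation lay above all genes. These members were chosen on values of these arrays, so that share supports nothing. The smallest adjusted p of a member was 0.0747, for Lmod1 in rhPBEF plus ventilation against control. Lmod1 read 8.02, 7.89 and 8.06 in control and 7.41, 7.50 and 7.76 in that group, a difference of -0.43 ± 0.14 (SE). It passed without rhPBEF plus ventilation replicate 3 (limma adjusted p = 0.0286), as did Mylk (limma adjusted p = 0.0177), and without ventilation replicate 2 (limma adjusted p = 0.0499).

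Medians over the members tested lay beside those over all genes as follows. In ventilation against control the median difference was -0.61 for smooth and -0.60 for cardiac members, 0.72 for the 7 skeletal members, and -0.04 over all genes. In rhPBEF against control they were -0.15, -0.46 and 1.10, against -0.07 over all genes. In rhPBEF plus ventilation against control they were -0.30, -0.53 and 0.01, against -0.06. The skeletal medians in ventilation and rhPBEF were the values of Tnnt3 and Mylpf. These genes had medians over the 12 arrays of 6.17 and 6.35, below the filter level, which their means passed only through the high arrays. The skeletal medians therefore cannot show a shift of the class. For Acta1 the difference in ventilation was 1.78 ± 1.43 (SE), with a limma adjusted p of 0.547, and only replicate 3 of that group stood above 7.34.

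Members whose 3 arrays lay entirely on one side of the 3 controls were few outside smooth muscle. In ventilation 6 of 11 smooth muscle members lay wholly below control (Acta2, Myh11, Myl9, Lmod1, Mylk and Synpo2), where 12% of all genes did. In rhPBEF 3 did (Lmod1, Smtn and Mylk), with 20.4% of all genes, and in rhPBEF plus ventilation 2 (Lmod1 and Smtn), with 19.7%. No cardiac member was separated from control in any group. Of the skeletal members, Acta1 and Myh1 lay wholly above control in ventilation and Acta1 and Tnni2 in the combined group, where 9.77% and 11.2% of all genes did; in rhPBEF none did, with 7.8% of all genes. These separations use the values by which the members were chosen.

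Contractile genes of all 3 classes are textbook targets of serum response factor, which binds the CArG box, a motif of 10 letters with a core of A and T. Both strands of the RefSeq promoter windows (GRCm38.p6, 250 bases before to 50 after the start) were searched for it. It was found in 5 of the 31 windows of the 28 members with an entry (16.1%) and in 535 of 32851 windows in all (1.63%). The 5 are shown because they span the 3 classes: Myl9 (chr2:156775248-156775367, plus strand), Myl7 (chr11:5898779-5898898, minus strand), Actc1 (chr2:114052858-114052977, minus strand), Acta1 (chr8:123894784-123894903, minus strand) and Myh4 (chr11:67237653-67237772, plus strand). Each line gives 120 bases, 5′ to 3′ on the strand of the gene, with the CArG box in capitals.
Myl9: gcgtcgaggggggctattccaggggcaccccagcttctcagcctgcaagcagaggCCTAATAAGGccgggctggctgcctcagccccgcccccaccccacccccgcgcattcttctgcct
Myl7: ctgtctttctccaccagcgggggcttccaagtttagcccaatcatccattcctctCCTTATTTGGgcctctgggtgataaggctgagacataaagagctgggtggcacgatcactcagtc
Actc1: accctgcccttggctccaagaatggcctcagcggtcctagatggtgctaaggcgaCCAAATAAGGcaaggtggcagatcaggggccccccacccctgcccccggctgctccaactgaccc
Acta1: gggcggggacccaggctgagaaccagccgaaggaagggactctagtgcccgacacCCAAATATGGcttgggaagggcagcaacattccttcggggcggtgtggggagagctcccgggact
Myh4: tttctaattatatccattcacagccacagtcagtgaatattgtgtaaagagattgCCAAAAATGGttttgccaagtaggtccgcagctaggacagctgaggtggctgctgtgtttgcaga
The box begins 161, 61, 47, 73 and 104 bases before the start in that order. A match is a description of these letters, not a binding site shown to be in use. The 5 genes did not share a pattern over the arrays: Myl9 and the cardiac pair were lowest in ventilation replicate 1, Acta1 was highest in rhPBEF replicate 2, and the probe set used for Myh4 was flat. Srf itself, the gene of the factor, stood at 10.64 in ventilation replicate 2 and between 8.81 and 9.67 in the other 11 arrays.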

How the data were processed

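Values were deposited on a log2 scale, with 1 value for each probe set in each array. How they had been normalised between arrays is not known. MAS5 and GCRMA were used, per the submitters' processing notes; the sources used here do not give their roles or versions, nor the background correction. Groups came from the sample titles, which went with the treatment protocols; a description naming every sample a control was not used. Values ran from 2.99 to 15.02 and 0 of the 12 arrays were identical.

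The 64 control probe sets were left out of 45101. Of the rest, 34945 carried 1 gene symbol in the platform annotation, which can be old, and gave 18193 genes, each read from its probe set with the highest mean. Of the 35 members 20 had 1 probe set and 15 several. For tests, a gene's mean had to exceed the 40th percentile of probe sets (6.42), leaving 12921. A model of 4 group means was fitted with limma 3.58.1 (lmFit, eBayes; R 4.3.3), with Benjamini-Hochberg adjustment over all genes in each comparison and a threshold of 0.05. It was tested on simulated data before use. Class shifts used all members, unfiltered, and have no test. Levels of different probe sets are not compared with each other. Figures used matplotlib 3.10.9 in Python 3.11.15.

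The members and the 23 gene lists (254 genes) were chosen with earlier results of these data known. All members are named; from other lists at most the 4 genes of widest range and the 4 of smallest p were to be named, with the 10 genes of widest gap in the array farthest from its group. Further names (Sftpc, Casq1, Myh3, Myl2, Tnnt1, Tnni1, Krt5, Krt6a, Sprr1a, and the genes high in both skeletal arrays) were chosen after their values were seen. Alternatives changed the filter, normalisation, variance model, probe set, summary, arrays and block.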

Additional observations from a re-analysis of the deposited data

Results flagged for a closer look

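In 4 skeletal members every array of 1 group lay to one side of its reference group's mean. Every array of another group lay to the opposite side of its own reference mean. The effect of ventilation on Acta1 was 1.78 log2 units without rhPBEF and -1.11 with it, a difference of -2.90. For Tnni2 it was 1.09 and -1.29, a difference of -2.38, and for Actn3 0.48 and -0.59, a difference of -1.07. The effect of rhPBEF on Tnnc2 was 2 without ventilation and -1.41 with it, a difference of -3.41. Each of these sets a group holding 1 very high array against others. For Acta1 and for Tnni2 limma's interaction term had an adjusted p of 0.998; for Tnnc2 and Actn3, which did not pass the filter on low values, the difference was not tested.

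Probe sets that the rule set aside carried signal above every control array. For Myh1, one stood 5.66 log2 units above the highest control in ventilation replicate 3 and 6.58 above it in rhPBEF replicate 2, and another 5.37 and 6.27 above. For Myh4 the corresponding gaps were 1.24 and 2.50, and for the second probe set of Tnni2 they were 1.21 and 2.28. The third probe set of Tnni2 stayed between 4.20 and 4.62 in all 12 arrays.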

How the results depend on the processing

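With 0 members past the threshold in each comparison, 132 recomputed counts did not change and 5 did. With array weights the counts became 17 for ventilation against control, 20 for rhPBEF plus ventilation against control and 6 for the combined treatment against ventilation. The weights did not converge and gave rhPBEF plus ventilation replicate 2 a weight of 22.7, against 0.165 to 2.63 for the rest, and 58.7% of all genes then passed for the combined treatment against control. Leaving out 1 array at a time gave 0 to 2 members for that comparison and 0 for the others. Of the recomputed mean shifts, 122 moved by less than the spread between arrays, which is wide enough here to hold changes of sign. The 1 exception was the cardiac shift in ventilation, 0.25 with control replicate 1 and ventilation replicate 1 both left out, a choice made after the data were seen. The replicate block left 0 members past in every comparison. Residuals of same-numbered samples correlated from -0.21 to 0.34 for replicate 1, -0.19 to 0.07 for replicate 2 and -0.07 to 0.53 for replicate 3; not every pair exceeded 0.1, so the numbers were not taken to pair the samples. The number of arrays, 3 a group, limits the precision of every value.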

Other observations

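Of 8 regulators of muscle transcription tested, including Srf, Myocd and the Mef2 genes, 1 passed for rhPBEF plus ventilation against control: Mrtfa, a coactivator of serum response factor, rose by 0.47 ± 0.11 log2 units (SE, limma adjusted p = 0.0295), with 9.55, 9.30 and 9.19 against 8.87, 8.78 and 8.98 in control. Over all genes tested 8.79% passed in that comparison. Myocd, the smooth muscle coactivator, was lowest at 6.18 in ventilation replicate 1 and highest at 7.54 in ventilation replicate 2. Of 21 further smooth muscle genes, 9 atrial and pulmonary vein genes, 21 striated muscle genes and 18 skeletal muscle genes past the filter, 0 passed limma's threshold in any of the 6 comparisons.

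Of 8 neutrophil markers tested, 7 rose with rhPBEF plus ventilation, where 8.79% of all genes passed, and 4 with rhPBEF alone, where 1.22% did, among them S100a8 and S100a9, which encode the calprotectin subunits. For ventilation alone 0 of 8 passed limma's adjusted threshold, where 0.00774% of all genes did, so that count says little. All 8 markers had positive differences, with a median of 2.66, and 8 had an unadjusted limma p under 0.05, beside 15.5% of all genes. Their mean lay 2.62 to 3.05 log2 units above control in rhPBEF, and at 3.49, 3.14 and 0.91 in ventilation, the lowest value being in replicate 3, which was high in skeletal muscle genes. Of 10 endothelial markers tested, 7 had a negative difference for rhPBEF plus ventilation against control, with a median of -0.21. Over all genes tested 61.8% were negative, with a median of -0.06, so the count of 7 lay near that share. Of the 10 markers 2 passed, in a comparison where 8.79% of all genes did. These 2, Eng and Ramp2, fell with rhPBEF plus ventilation, by 0.67 ± 0.09 and 0.77 ± 0.18 log2 units (SE, limma adjusted p = 0.00499 and 0.0288). Means of cartilage, thymocyte, thyroid and nerve markers stayed between -0.15 and 0.15 log2 units of control in all 12 arrays.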
